A study of Mus musculus with 9 samples.

Results

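Mouse CD8+ T cells given OVA peptide were compared with control cells that received none, in 6 of the 9 RNA-seq libraries of the series. The control group and the OVA group held 3 libraries each; the remaining 3 libraries, from cells given the peptide and citraconate together, are not described here. OVA peptide comes from chicken ovalbumin, a common model antigen, and CD8+ T cells with a matching receptor recognise it on MHC class I molecules. The labels give no genotype, strain, T cell receptor, peptide dose or time of exposure, and they use the term "PAS-T cells" without defining it. Nor do they say that replicates came from separate animals or cultures, so the p-values reflect the spread among libraries only, and that spread may be technical. TPM, the unit of all levels here, counts the transcripts of a gene per 1000000 transcripts of its library and takes transcript length into account. Of the 48709 genes in the table, the 11739 whose mean reached 1 TPM in control or OVA were tested with limma on log2(TPM + 1).

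When a CD8+ T cell meets its peptide, the T cell receptor and its CD3 chains pass the signal through the kinases Lck and Zap70 to calcium, Ras and NF-kB pathways. Activated cells divide, make cytokines and fill granules with perforin and granzymes, which enter the target cell and kill it. With repeated or prolonged signalling, cells also take on inhibitory receptors and, in some settings, receptors better known from natural killer (NK) cells.

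All 6 libraries carried transcripts of the CD8 co-receptor and of the receptor complex. Cd8b1 stood at 609, 584 and 610.2 TPM in control and 185, 126 and 221 TPM with OVA, and Cd8a at 217 and 142 TPM on average, while Cd4 was at 2.62 and 1.27 TPM. The libraries held 14919969 to 17384330 reads assigned to genes. The first principal component carried 92.2% of the variance and separated the groups; OVA replicates 2 and 3 lay at opposite ends of the second, which carried 3.17%. Transcripts that mark other cell types were present at low levels, and several of them differed between the groups. The 7 NK cell markers summed to 9.98 to 13.3 TPM in control and 271 to 390 TPM with OVA, with 6 of 7 higher, and Ncr1 was at 0 in every control library. Ncr1, Klrb1c, Klra4 and Klra8 averaged below 1 TPM in control, so they were tested only through their OVA level. The 5 gamma-delta T cell markers summed to 187 to 224 TPM in control and 40.1 to 47.0 TPM with OVA, with 4 of 4 tested lower. The 7 B cell markers summed to 224 to 259 TPM and 57.9 to 88.4 TPM, most of it Ighm. Of 4 tested, 3 were lower and 1 was higher, each at least 2-fold. Pax5 and Ms4a1 were below the level tested. The 9 macrophage and monocyte markers summed to 4.48 to 8.28 TPM and 18.5 to 23.8 TPM, from Cd68 and Cd14, while Adgre1, C1qa, C1qb and Mertk were at 0 in all 6 libraries. The 7 granulocyte and mast cell markers summed to 3.55 to 6.88 TPM and 16.8 to 18.4 TPM, from Kit, Cpa3 and Ly6g, while S100a8, S100a9 and Elane were at 0 throughout. The 8 stromal and epithelial markers summed to 4.89 to 6.58 TPM and 29.0 to 41.4 TPM, nearly all from Epcam with OVA. The part of such cells in the results below was not tested, and in bulk RNA fewer cells of a type and less RNA per cell cannot be told apart.

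Most tested genes differed between the groups. At an adjusted p under 0.05, 3717 genes (31.7%) were higher and 4675 (39.8%) were lower with OVA, so a list with most members called is near the background of 71.5%. A change of at least 2-fold was rarer, with 1054 genes (8.98%) higher and 1523 (13%) lower, and it is the measure by which lists are set against the background here. Changes of at least 4-fold numbered 326 higher and 353 lower, but beyond that higher genes were the more numerous, with 140 against 94 at 8-fold or more and 32 against 8 at 32-fold or more. The median log2 difference (OVA minus control) over all tested genes was -0.08. Leaving the granzyme genes out of the total before rescaling moved this median up by 0.11, so small differences near 0 depend on the scaling.

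**Figure D1:**
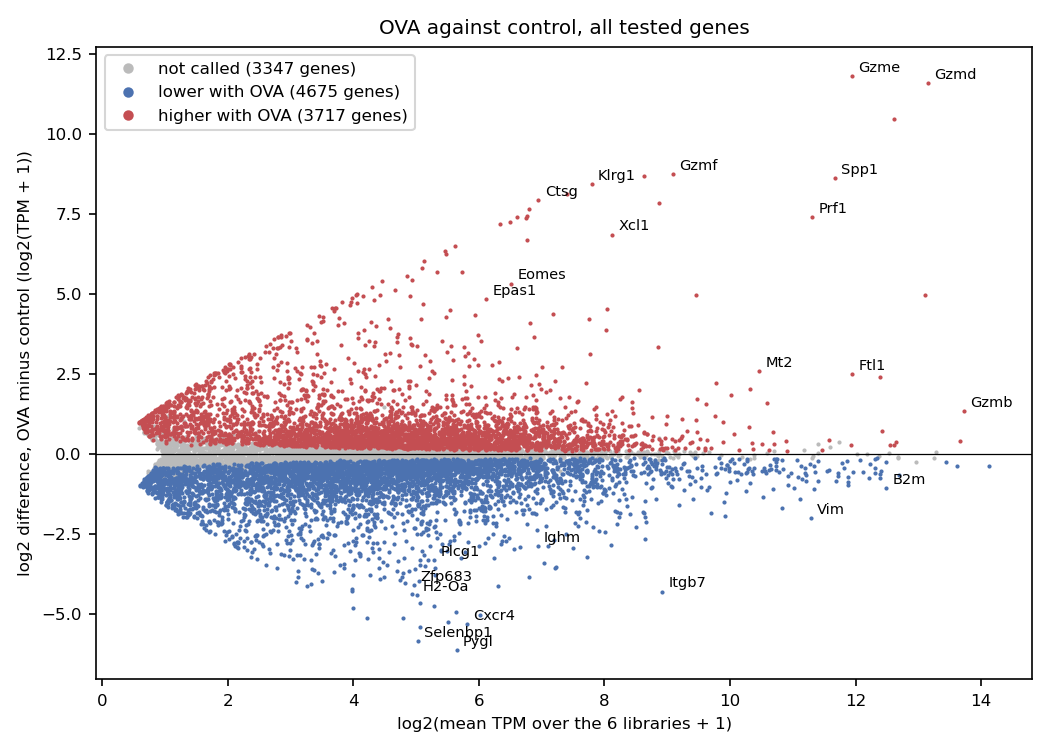
Each point is a tested gene, with the log2 of its mean TPM over the 6 libraries plus 1 on the x axis and its log2 difference (OVA minus control) on the y axis; red points were higher and blue points lower at an adjusted p under 0.05. The granzyme genes Gzmd and Gzme stand at the upper right with differences of 11.61 and 11.83, while the largest decrease, Pygl, lies at -6.13.

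**Figure D2:**
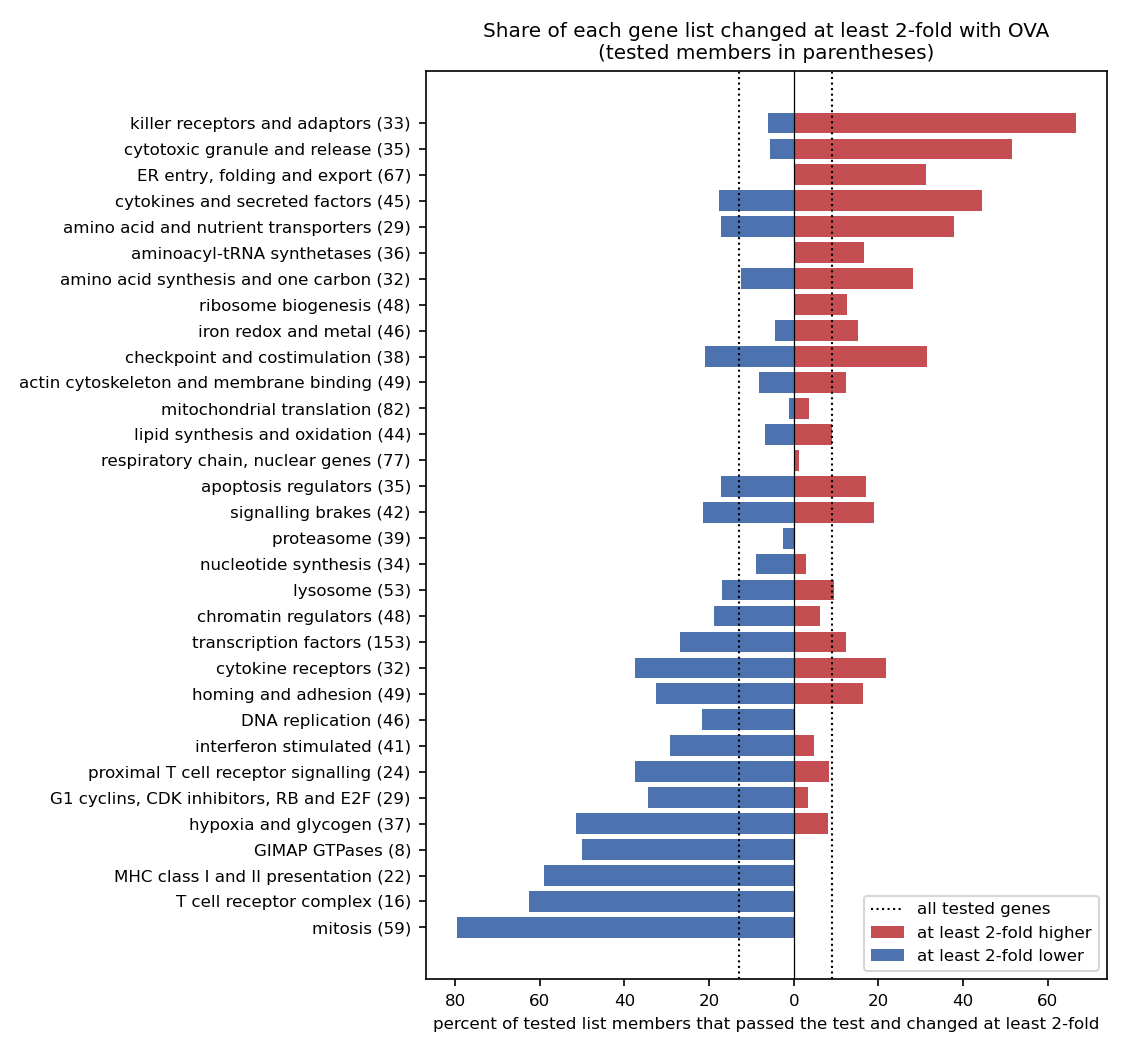
Bars give, for each gene list, the percent of tested members at least 2-fold higher (red, right) or lower (blue, left) with OVA, and the dotted lines give the same shares over all tested genes, 8.98% and 13%. Killer receptors (66.7% higher) and mitosis genes (79.7% lower) lie at the ends. Several killer receptor genes were tested only through their OVA level, which partly sets their share.

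The T cell receptor itself was lower at nearly every component. Of 16 tested genes of the receptor complex and its co-receptors, 15 were lower and 10 were at least 2-fold lower (62.5%, against 13% of all tested genes), with a median log2 difference of -1.40. Cd3g, a signalling chain of the complex, stood at 1430.2, 1562 and 1576 TPM in control and 438, 281 and 509 TPM with OVA (log2 difference -1.93, SE 0.19, adjusted p = 4.6e-05). OVA replicate 2 was the lowest library, and the groups did not overlap. Trat1, which encodes an adaptor that stabilises the receptor complex, showed the largest difference of the list, from 68.97, 66.1 and 58.01 TPM in control to 0.896, 0.228 and 0.634 TPM with OVA (log2 difference -5.38, SE 0.16, adjusted p = 1.7e-07). Cd2, an adhesion receptor that supports signalling, fell from 471 ± 21.9 to 127 ± 49.3 TPM (SD, n = 3), and Ly9, a SLAM family receptor, from 99.8 ± 0.528 to 29.4 ± 5.74 TPM. Ptprc, the phosphatase CD45, was the member that was not called, at 214 and 219 TPM; under median of ratios scaling and with granzymes left out, 1 member of the list was called higher.

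The signalling genes just below the receptor were also mostly lower, but less uniformly. Of 24 tested, 15 were lower, 9 of them at least 2-fold (37.5%), and 3 were higher. Plcg1, the phospholipase that releases the calcium signal, stood at 71.9, 70.002 and 66.4 TPM in control and 6.74, 3.46 and 9.44 TPM with OVA (log2 difference -3.31, SE 0.26, adjusted p = 1.6e-05). Every OVA library lay below every control library, OVA replicate 2 lowest. Themis, a T cell protein that tunes Lck and phosphatase activity, fell from 148 ± 5.81 to 22.1 ± 4.07 TPM; Grap2, the adaptor that links Lat to Lcp2, from 151 ± 3.504 to 24.2 ± 5.36 TPM; and Skap1, an adaptor in integrin activation, from 84.3 ± 3.096 to 18.03 ± 4.46 TPM. Txk, a Tec family kinase, went the other way, from 2.58, 2.22 and 2.07 TPM to 35.5, 43.4 and 30.2 TPM (log2 difference 3.49, SE 0.14, adjusted p = 5.9e-07). Sh2d2a, an adaptor that binds Lck, rose from 80.5 ± 2.06 to 206 ± 12.3 TPM. Fyb, the third member called higher, stood at 115, 108 and 102 TPM and 116, 149.9 and 122 TPM (log2 difference 0.25, SE 0.10, adjusted p = 0.0466), a call that was lost without OVA replicate 2 and without each control library in turn.

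**Figure D3:**
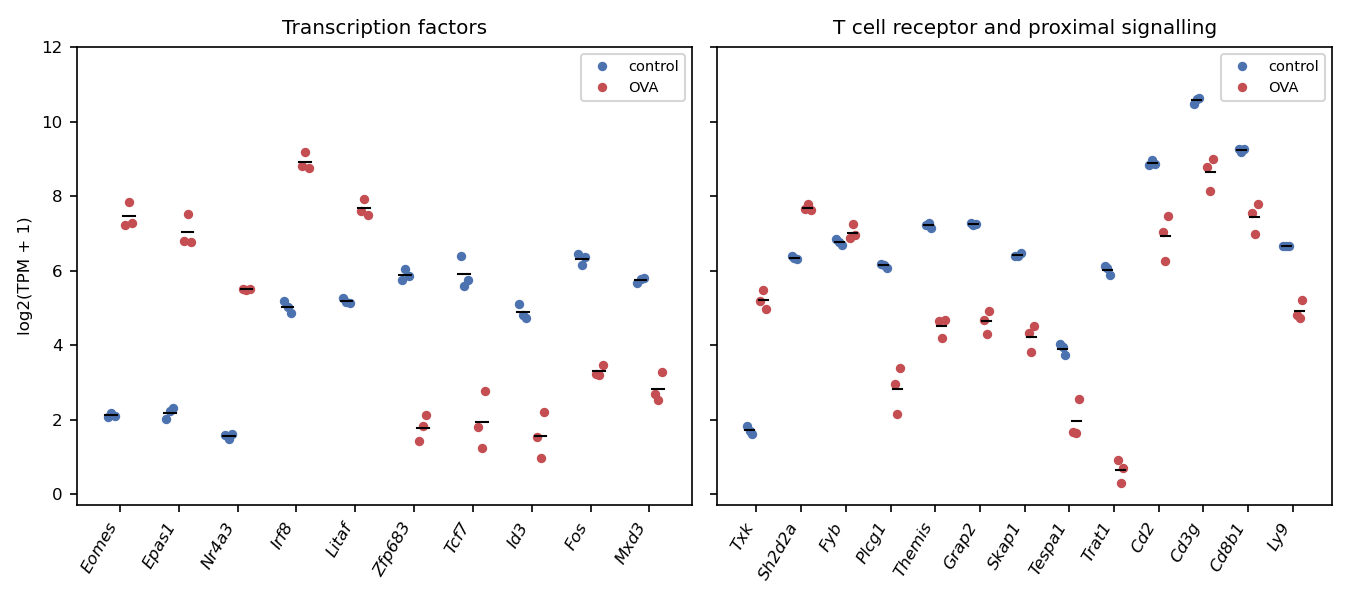
Points are libraries (control blue, OVA red) and black bars are group means of log2(TPM + 1) for the transcription factors with the largest increases and decreases (left) and for genes of the T cell receptor and its proximal signalling (right). Groups did not overlap for any gene shown; Fyb lies closest, and Trat1, Tcf7 and Zfp683 are near the bottom of the scale with OVA.

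Receptors and adaptors of the NK type rose in number and size. Of 33 tested, 23 were higher and 22 of these at least 2-fold (66.7%, against 8.98%), with a median log2 difference of 2.98. Members such as Tyrobp, Klrg1, Sh2d1b2, Fcgr3, Ncr1, Klrb1c, Klra4 and Klra8 averaged below 1 TPM in control. They were tested only through their OVA level, so the share of 66.7% is partly set by the filter. Adaptors that carry activation motifs were among the largest increases of the list. Tyrobp, which encodes DAP12, stood at 0.777, 0.734 and 1.08 TPM in control and 786, 969 and 612 TPM with OVA (log2 difference 8.71, SE 0.16, adjusted p = 2.3e-08). Fcer1g, the Fc receptor gamma chain, stood at 2.57, 3.36 and 2.97 TPM and 873, 1205 and 722 TPM (log2 difference 7.85, SE 0.17, adjusted p = 4.7e-08). OVA replicate 2 was the highest library for both and OVA replicate 3 the lowest, and no OVA library came near the controls. Sh2d1b2, a SLAM adaptor of NK cells, rose from 0.0378 ± 0.0655 to 85.8 ± 18.97 TPM, and Fcgr3, the low-affinity Fc receptor CD16, from 0.338 ± 0.198 to 58.8 ± 14.9 TPM. Hcst, which encodes DAP10, the adaptor that pairs with NKG2D, fell from 64.3 ± 10.3 to 21.3 ± 3.05 TPM. Cd226, an activating receptor for nectin-like ligands, fell from 59.4, 68.6 and 57.7 TPM to 6.303, 4.24 and 8.401 TPM (log2 difference -3.14, SE 0.19, adjusted p = 4.3e-06). Klra3 fell from 6.64 ± 0.0817 to 4.22 ± 0.5403 TPM while 7 of the 9 tested members of its family (the Ly49 receptors; Klra2, one of the 7, is not on this list) rose at least 2-fold; these are near-identical copies, so how reads were divided within the family is uncertain. Of the 7, Klra1, Klra2, Klra4, Klra8 and Klra9 were tested only through their OVA level. The NK cell markers given above moved with this list and share Ncr1, Klrb1c, Klre1, Klra4 and Klra8 with it; their part in the result was not tested.

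Many of these receptors lie side by side on mouse chromosome 6. In RefSeq gene order, the stretch from Klrb1a to Klra2 holds 48 genes, of which 26 were tested. Of these, 15 were higher, 6 were lower and 5 were not called, with 14 and 2 changed at least 2-fold. Several, such as Klrb1a, Klrb1b, Klrb1c, Klra1, Klra2 and Klra8, averaged below 1 TPM in control and were tested only through their OVA level. The differences were not uniform along the stretch. Klrb1c (NK1.1) rose from 0.913 to 56.99 TPM, Klre1 from 3.62 to 39.8 TPM and Klra7 from 1.55 to 65.5 TPM. Between them, Cd69, an early activation antigen, fell from 186 to 112 TPM, and Klrk1 (NKG2D) and Klrd1 (CD94), at 39.3 to 54.1 TPM and 211 to 157 TPM, were not called; these 3 were chosen after their values were seen.

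Granule genes took 1.29 ± 0.108% of all transcripts in control and 9.51 ± 1.03% with OVA (SD, n = 3). Of 35 genes of the cytotoxic granule and its release, 29 were higher and 18 of them at least 2-fold (51.4%), with a median log2 difference of 1.34. Gzme stood at 0.562, 1.06 and 2.03 TPM in control and 7770.5, 9359 and 6511 TPM with OVA (log2 difference 11.83, SE 0.23, adjusted p = 2.6e-08), and Gzmd at 4.48, 6.94 and 3.29 TPM and 17244, 21908 and 15235 TPM (log2 difference 11.61, SE 0.22, adjusted p = 2.5e-08). Gzmb, granzyme B, was already among the 10 most abundant genes in control at 7088, 8199 and 7818 TPM and reached 19977, 18749 and 19608 TPM (log2 difference 1.34, SE 0.06, adjusted p = 1.0e-06). By the ratio of group means, Gzmb rose 2.52-fold and Gzmd 3696-fold. Prf1, which encodes the pore-forming perforin, rose from 28.2 ± 2.59 to 5047 ± 935 TPM. Serpinb9b, a relative of the granzyme B inhibitor Serpinb9, rose from 0.06496 ± 0.0773 to 222 ± 57.4 TPM. The 12 genes of granule docking and release moved less and not together, with 9 higher, 3 lower and a median of 0.48. Among them Sytl1, a Rab27 effector on secretory granules, fell from 39.7 ± 0.526 to 7.54 ± 0.715 TPM, Lyst, a regulator of lysosome size, from 11.6 ± 1.18 to 6.79 ± 1.31 TPM, and Stxbp2, which controls granule fusion, from 85.6 ± 0.741 to 70.6 ± 0.275 TPM. Ctsw, a cathepsin of cytotoxic lymphocytes, fell from 358 ± 12.3 to 131 ± 11.7 TPM.

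The granzymes with the largest increases are neighbours. On chromosome 14 the RefSeq order is Cma1, Cma2, Mcpt1, Mcpt2, Mcpt9, Mcpt4, Mcpt8, Ctsg, Gzme, Gzmd, Gzmg, Gzmn, Gzmf, Gzmc and Gzmb. Of these 15 genes, the 10 that reached the level tested were all at least 2-fold higher, with a median log2 difference of 7.68 (the other 5 stayed below 1 TPM in both groups). Cma1, Mcpt8, Ctsg and Gzmn averaged below 1 TPM in control and were tested only through their OVA level. They could hardly have been called lower, so the count of 10 and the median are partly set by the filter. The rise reached past the granzymes into proteases known from mast cells, basophils and neutrophils. Ctsg, cathepsin G, was at 0 in all 3 control libraries and at 254, 244 and 236 TPM with OVA, at least 473-fold higher when 3 reads per library are taken as the floor. Mcpt8, a basophil protease, stood at 0, 0.191 and 0.169 TPM and 186, 222 and 169.9 TPM (log2 difference 7.43, SE 0.12, adjusted p = 2.3e-08), and Cma1, mast cell chymase, rose from 0.188 to 55.9 TPM on average. Mcpt1, Mcpt2, Mcpt4 and Mcpt9, which lie between Cma1 and Mcpt8, were not tested. The OVA libraries were the high ones for each gene that was tested, with no overlap. The mast cell and granulocyte markers given above moved in the same direction at far lower levels, with S100a8, S100a9 and Elane at 0; their part in these values was not tested.

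Gzmd and Gzme are close copies, so how reads were divided between them is uncertain; their upstream sequence is alike too. In the GRCm38.p6 promoter table of RefSeq, the 250 bases before the 2 starts were 80.4% identical without gaps, and the nearest 120 differed at 5 positions. Gzmf and Gzmg were the most alike of the 10 tested genes of the cluster, at 84%, and Gzmb was at most 32.8% identical to any of the other 9 in the same comparison. Sequences were shifted by at most 20 bases, so a match further along is missed. Gzmd and Gzmf scored 31.2%, although they were 80.4% and 75.2% identical to Gzme. Low values such as those of Gzmb therefore do not show how alike the promoters are. The stretches of Gzmd (chr14:56132594-56132713, minus strand) and Gzme (chr14:56120627-56120746, minus strand) are shown 5′ to 3′, aligned end to end, with the differing bases in capitals.
Gzmd: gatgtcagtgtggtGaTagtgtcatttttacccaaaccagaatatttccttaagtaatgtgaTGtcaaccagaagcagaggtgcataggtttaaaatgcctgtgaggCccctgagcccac
Gzme: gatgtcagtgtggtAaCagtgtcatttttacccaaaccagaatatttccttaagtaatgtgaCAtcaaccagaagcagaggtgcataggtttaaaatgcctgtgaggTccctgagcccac

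**Figure D4:**
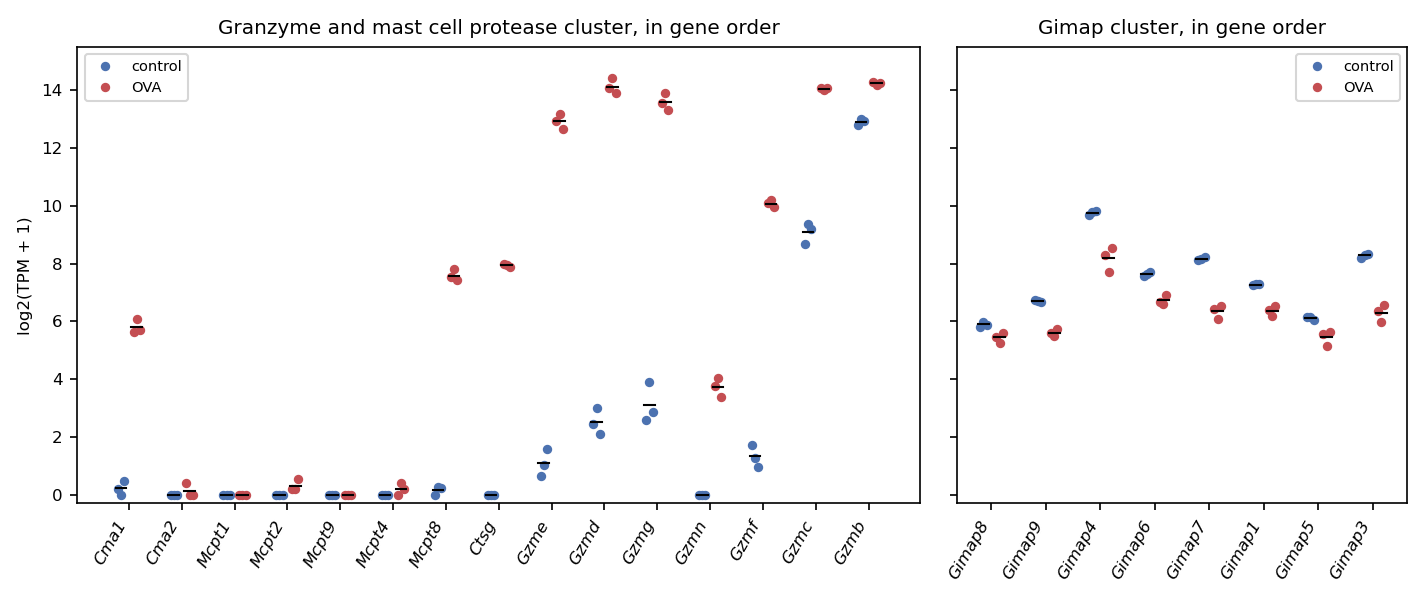
Points are libraries (control blue, OVA red) and bars group means of log2(TPM + 1), for the genes of the chromosome 14 protease cluster (left) and the chromosome 6 Gimap cluster (right) in RefSeq order. Ctsg and Gzmn are at 0 in all control libraries, and the 8 Gimap genes are lower with OVA.

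The lysosome, from which granules derive, did not follow them as a whole. Of 53 tested genes, 25 were higher and 17 lower, and 5 and 9 of these changed at least 2-fold. The proton pump that acidifies the compartment leaned upward, with 12 of 16 V-ATPase genes higher and the other 4 not called (median 0.44). Only 1 of the 12 was at least 2-fold higher. Atp6v0a1, a membrane subunit of the pump, rose from 0.747 ± 0.142 to 11.1 ± 1.4997 TPM. Enzymes and membrane proteins were divided, with 13 of 37 higher and 17 lower. Ctsd, cathepsin D, stood at 445, 514 and 539.99 TPM and 1984, 2300.4 and 1850.3 TPM (log2 difference 2.03, SE 0.10, adjusted p = 1.2e-06). In the other direction Ctss, the cathepsin that trims the class II invariant chain, fell from 79.9, 71.9 and 63.9 TPM to 4.29, 3.91 and 7.98 TPM (log2 difference -3.56, SE 0.22, adjusted p = 4.0e-06), and Psap, the saposin precursor, from 350.4 ± 5.02 to 122 ± 17.2 TPM.

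Of 42 tested brakes on signalling, 14 were higher (33.3%) and 18 lower (42.9%), which is near the background, with 8 (19.0%) and 9 (21.4%) at least 2-fold. Rgs16, which turns off G proteins downstream of chemokine receptors, stood at 11.4, 11.8 and 10.7 TPM and 215, 185 and 231 TPM (log2 difference 4.099, SE 0.09, adjusted p = 4.2e-08), whereas its relative Rgs10 stood at 46.8, 48.6 and 53.1 TPM and 5.37, 2.01 and 6.93 TPM (log2 difference -3.24, SE 0.31, adjusted p = 4.1e-05). The Ras pathway inhibitors also moved in both directions. Spry4 rose from 0.232 ± 0.07602 to 12.3 ± 2.61 TPM and Spred1 from 1.49 ± 0.139 to 10.8 ± 0.592 TPM, while Spry1 fell from 10.2 ± 2.701 to 1.68 ± 1.42 TPM. Ubash3b, a phosphatase that acts on Zap70 and Syk, rose from 9.99 ± 0.599 to 47.5 ± 1.38 TPM. Dgka, the kinase that removes diacylglycerol, fell from 282 ± 9.28 to 51.05 ± 16.6 TPM, the phosphatase gene Dusp1 from 58.02 ± 1.78 to 11.1 ± 1.74 TPM, and Socs1, the inhibitor of JAK kinases, from 83.3 ± 4.04 to 18.8 ± 3.5997 TPM.

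Checkpoint and costimulatory receptors moved in both directions, with 15 of 38 higher, 16 lower, and 12 and 8 at least 2-fold (31.6% and 21.1%). Their median was -0.04 and turned positive under median of ratios scaling and with granzymes left out. Havcr2, the inhibitory receptor TIM-3, stood at 16.6, 23.4 and 22.5 TPM and 483, 561 and 469 TPM (log2 difference 4.54, SE 0.13, adjusted p = 1.3e-07). Ceacam1, an inhibitory adhesion molecule, rose from 0.128 ± 0.0593 to 8.005 ± 1.91 TPM, Entpd1 (CD39, which breaks down extracellular ATP) from 10.1 ± 0.576 to 84.2 ± 15.1 TPM, and Pdcd1lg2, a ligand of PD-1, from 4.34 ± 0.715 to 39.4 ± 3.605 TPM. Ctla4, by contrast, stood at 255, 242 and 248 TPM and 79.8, 55.7 and 104 TPM (log2 difference -1.67, SE 0.19, adjusted p = 1.0e-04). The OVA libraries were high for Havcr2 and low for Ctla4, without overlap in either. Cd40lg, the helper ligand of CD40, fell from 25.6 ± 3.48 to 1.31 ± 0.627 TPM, Tnfrsf18 (GITR) from 280.2 ± 7.03 to 109.5 ± 29.3 TPM and Cd7 from 18.2 ± 2.81 to 1.63 ± 0.972 TPM.

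Of 153 tested transcription factors, 43 were higher and 85 lower, with 19 (12.4%) and 41 (26.8%) at least 2-fold and a median log2 difference of -0.34. Eomes, a T-box factor of effector, memory and NK cells, stood at 3.202, 3.54 and 3.299 TPM in control and 149, 229 and 154 TPM with OVA (log2 difference 5.33, SE 0.15, adjusted p = 1.6e-07). Epas1, the oxygen-regulated factor HIF-2 alpha, stood at 3.06, 3.66 and 3.97 TPM and 109.7, 183 and 107 TPM (log2 difference 4.84, SE 0.20, adjusted p = 6.8e-07). OVA replicate 2 was the highest library for both, and the groups were far apart. Zfp683, which encodes the residency factor Hobit, stood at 52.6, 64.6 and 57.1 TPM in control and 1.67, 2.55 and 3.34 TPM with OVA (log2 difference -4.09, SE 0.17, adjusted p = 7.6e-07). Id3, an inhibitor of E proteins kept in memory precursors, fell from 28.6 ± 4.21 to 2.16 ± 1.36 TPM, and Mxd3, a partner of Max, from 52.7 ± 2.38 to 6.31 ± 2.15 TPM.

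Within several factor families the members moved in opposite directions; these families and the members below without per-library values were chosen after their values were seen. Of the 8 interferon regulatory factors, 2 were higher and 6 lower. Irf8 stood at 35.3, 31.3 and 27.9 TPM and 446, 585 and 431 TPM (log2 difference 3.90, SE 0.13, adjusted p = 2.5e-07), and Irf5 rose from 13.5 to 30.03 TPM, while Irf1, Irf2, Irf3, Irf4, Irf7 and Irf9 fell, Irf1 from 125 to 21.6 TPM. Among the NR4A receptors, which are induced by T cell receptor signals, Nr4a3 stood at 2.02, 1.77 and 2.05 TPM and 44.6, 43.3 and 44.5 TPM (log2 difference 3.94, SE 0.08, adjusted p = 3.7e-08), and Nr4a2 rose from 7.49 to 27.8 TPM, but Nr4a1 fell from 111 to 15.6 TPM. Among AP-1 genes, Fos stood at 85.7, 70.6 and 81.3 TPM and 8.27, 8.16 and 10.1 TPM (log2 difference -3.03, SE 0.10, adjusted p = 3.2e-07) and Fosb fell from 73.8 to 9.799 TPM, whereas Fosl1 rose from 2.46 to 15.8 TPM. Of the STAT factors, 1 of 7 rose (Stat3, 43.7 to 90.2 TPM) and 4 fell. Of 7 Krüppel-like factors tested, 6 were lower and Klf4 was not called; among the 6 was Klf2, a regulator of S1pr1, from 143 to 19.3 TPM; under quantile normalization and median of ratios scaling 5 of 7 were lower. Of 5 NF-kB genes, Nfkb2, Rel and Relb rose and Nfkb1 fell; the fall of Nfkb1 was not called with granzymes left out.

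Secreted products rose more often than they fell. Of 45 tested cytokines and secreted factors, 24 were higher and 12 lower, with 20 (44.4%) and 8 (17.8%) at least 2-fold and a median of 0.58. The chemokine Ccl3 stood at 40.4, 37.9 and 45.96 TPM and 1574, 911 and 1618 TPM (log2 difference 4.97, SE 0.20, adjusted p = 6.9e-07). Xcl1, a chemokine that attracts cross-presenting dendritic cells, stood at 4.96, 1.56 and 3.86 TPM and 630.2, 235 and 790.4 TPM (log2 difference 6.87, SE 0.47, adjusted p = 6.9e-06). OVA replicate 2 was the lowest OVA library for both, whereas it was the highest for Gzmd, Gzme and Prf1. Penk, the precursor of enkephalin peptides, rose from 0.0941 ± 0.0889 to 178 ± 70.3 TPM, and Spp1 (osteopontin) from 15.1 ± 1.25 to 6515 ± 1548 TPM. The genes from Ccl5 to Ccl4 on chromosome 11 gave 4 higher of 5, with Ccl5 not called. Among secreted factors that fell, Ltb, which encodes lymphotoxin beta, stood at 449, 477 and 507 TPM and 76.3, 45.8 and 81.5 TPM (log2 difference -2.84, SE 0.19, adjusted p = 6.7e-06). Lif, a cytokine of the interleukin-6 family, fell from 30.9 ± 8.74 to 5.02 ± 1.03 TPM and Igfbp4, a binding protein of insulin-like growth factors, from 39.2 ± 16.6 to 1.58 ± 0.244 TPM.

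Cytokine receptors went more often down, with 18 of 32 lower and 9 higher (12 and 7 at least 2-fold, median -0.50). Il7r, the receptor chain for the survival cytokine interleukin 7, stood at 85.2, 80.3 and 79.1 TPM and 20.003, 11.2 and 25.1 TPM (log2 difference -2.13, SE 0.24, adjusted p = 9.9e-05). Il18r1 fell from 120.05 ± 5.16 to 28.1 ± 11.5 TPM, Ifnar2, a chain of the type I interferon receptor, from 27.3 ± 2.85 to 5.19 ± 0.523 TPM, and Tgfbr3, a co-receptor for TGF-beta, from 8.71 ± 1.65 to 1.63 ± 0.353 TPM. Il2ra, the high-affinity chain for interleukin 2, rose from 349, 309.8 and 269.6 TPM to 642, 797 and 689.9 TPM (log2 difference 1.197, SE 0.11, adjusted p = 2.8e-05). Il1r2, a decoy receptor for interleukin 1, rose from 8.58 ± 1.13 to 47.7 ± 14.2 TPM, and Il1rl1, the receptor for interleukin 33, from 0.701 ± 0.1397 to 4.998 ± 1.82 TPM.

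Of 49 tested homing and adhesion genes, 15 were higher and 24 lower, with 8 (16.3%) and 16 (32.7%) at least 2-fold. Of 10 chemokine receptors tested, 6 were lower and 1 higher (5 and 2 under quantile normalization). Cxcr3, which guides effector cells to inflamed tissue, stood at 65.9, 57.8 and 65.4 TPM and 1.86, 0.902 and 2.09 TPM (log2 difference -4.64, SE 0.18, adjusted p = 5.0e-07), and Ccr4 fell from 17.7 ± 3.11 to 2.02 ± 0.837 TPM. Of 14 integrins tested, 7 were higher and 5 lower. Itgb7, the beta chain of the gut-homing and epithelial-binding integrins, stood at 961, 898 and 907 TPM and 43.5, 54.1 and 41.6 TPM (log2 difference -4.29, SE 0.09, adjusted p = 4.5e-08). Itga1, the collagen-binding chain CD49a, rose from 1.85, 2.54 and 1.62 TPM to 31.7, 43.9 and 26.6 TPM (log2 difference 3.53, SE 0.19, adjusted p = 2.4e-06). Itgav rose from 14.8 ± 1.86 to 56.97 ± 6.41 TPM, Itga3 from 7.23 ± 0.773 to 24.95 ± 1.92 TPM, and Pecam1, the adhesion molecule CD31, from 40.6 ± 1.07 to 276 ± 60.9 TPM.

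Of 49 tested genes of the actin cytoskeleton and of membrane binding, 18 were higher and 22 lower, with 6 (12.2%) and 4 (8.16%) at least 2-fold, near the background. Vim, the intermediate filament protein vimentin, stood at 4084, 3972 and 3938 TPM and 1023, 940.1 and 1041 TPM (log2 difference -1.998, SE 0.05, adjusted p = 7.1e-08). S100a4, a calcium-binding protein of motile cells, fell from 2778 ± 340.2 to 869 ± 146 TPM and Coro1a, an actin regulator of lymphocytes, from 1362 ± 56.97 to 587 ± 28.3 TPM. Avil, the actin-severing protein advillin, stood at 0.102, 0.2402 and 0.1699 TPM and 299, 422 and 288 TPM (log2 difference 8.15, SE 0.14, adjusted p = 2.3e-08). Myo1e, a membrane-bound myosin, rose from 4.63 ± 0.308 to 116 ± 22.6 TPM, and Scin, the actin-severing protein scinderin, from 0.237 ± 0.228 to 216 ± 55.2 TPM.

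Molecules that display peptides were lower. Of 22 tested genes of class I and class II presentation, 16 were lower, 13 of them at least 2-fold (59.1%), and 2 were higher; the summed share fell from 1.55 ± 0.0310% to 0.732 ± 0.0138% of transcripts. B2m, the light chain of class I, stood at 8005, 7705 and 7513 TPM and 3767, 3703 and 3783 TPM (log2 difference -1.04, SE 0.04, adjusted p = 5.6e-07). H2-Q7, a class Ib heavy chain, fell from 686 ± 29.6 to 108 ± 16.97 TPM; class I heavy chains are close copies, and reads may be shared among them. H2-Ab1, a class II chain, stood at 161, 139 and 143 TPM and 7.297, 4.86 and 11.8 TPM (log2 difference -4.12, SE 0.24, adjusted p = 3.6e-06). Of 8 class II genes tested, 5 were lower and 3 were not called. The class II accessory chains H2-Oa and H2-DMa fell from 60.4 ± 2.15 to 1.98 ± 0.696 TPM and from 43.002 ± 2.63 to 5.34 ± 1.36 TPM, and H2-Ob was at 12.002, 7.92 and 10.5 TPM in control and at 0 in all OVA libraries, at least 68.0-fold lower. Cd74, the class II invariant chain, stood at 23.9, 12.04 and 12.997 TPM and 28.2, 12.1 and 39.98 TPM (log2 difference 0.59, adjusted p = 0.225); without OVA replicate 2 it was called higher (log2 difference 1.06, adjusted p = 0.00784). The sum of the B cell markers above fell as these class II genes did, but 1 of the 4 tested markers rose. The part of B cells in these class II values was not tested. Erap1 and Tapbpl, which trim and load peptides, were the members called higher, from 72.98 ± 1.43 to 81.98 ± 1.55 TPM and from 40.99 ± 1.46 to 51.03 ± 6.88 TPM; the call of Tapbpl was lost without control replicates 2 or 3 and without OVA replicates 1 or 3. Of 5 genes of the immunoproteasome, which cuts peptides for class I, and its activator, 4 were lower and 1 higher (3 lower with granzymes left out). Psmb9 fell from 121 ± 2.88 to 43.8 ± 6.23 TPM, Psmb8 from 425 ± 2.92 to 274 ± 7.09 TPM and the activator Psme1 from 324 ± 7.302 to 240.1 ± 11.1 TPM, while the activator Psme2 rose from 155 to 172 TPM. Of the standard particle, 9 of 14 constitutive core subunits and 14 of 17 cap subunits were higher, against 31.7% of all tested genes. These rises were small (medians 0.31 and 0.41), with 0 at least 2-fold in either set. The core count was 13 under median of ratios scaling and 14 with granzymes left out. Psmb5 rose from 237 ± 4.55 to 399 ± 15.3 TPM.

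Interferon-stimulated genes fell in number, with 30 of 41 lower (12 at least 2-fold, median -0.80) and 6 higher, a count of 3 without control replicate 3. Oas3, which makes an activator of RNase L, stood at 53.6, 48.6 and 45.1 TPM and 2.67, 1.07 and 3.68 TPM (log2 difference -3.93, SE 0.26, adjusted p = 6.5e-06). Igtp, a GTPase that guards against vacuolar pathogens, fell from 239 ± 23.98 to 31.8 ± 4.73 TPM, and Samhd1, which breaks down nucleotides, from 143 ± 2.98 to 23.9 ± 3.91 TPM. Oasl1 was among those that rose, from 0.1903 ± 0.181 to 3.91 ± 0.419 TPM. The 8 Gimap genes, a chromosome 6 cluster of GTPases linked to lymphocyte survival, all fell, with a median log2 difference of -1.01. Gimap4 stood at 826, 879 and 895 TPM and 317, 208 and 373 TPM (log2 difference -1.57, SE 0.18, adjusted p = 1.2e-04), OVA replicate 2 lowest and no overlap. In the Ms4a cluster of chromosome 19, 5 of 7 tested genes were lower, among them Ms4a6b, from 199 ± 11.002 to 41.1 ± 20.2 TPM.

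The interferon-stimulated list also shared a sequence. An interferon response element (GAAA, any 2 bases, GAAA), searched on both strands in 250 bases before to 50 after the start, was found in 18 of 29 promoters of the list that RefSeq (GRCm38.p6) gave, or 62.1%, against 3.18% of the 9161 promoters of tested genes that matched. Of the 18 genes, 12 were lower and 2 higher. Since 30 of the 41 tested genes of the list were lower, the direction of these 18 says nothing about the element. Over all 291 genes with the element, 129 were lower and 80 higher, where 39.8% and 31.7% of all tested genes were. A match describes the letters and is no measure of binding. Upstream stretches of Oas3 (chr5:120777660-120777749, minus strand) and Igtp (chr11:58199496-58199555, plus strand), among the largest decreases of the list, carry the match in capitals.
Oas3: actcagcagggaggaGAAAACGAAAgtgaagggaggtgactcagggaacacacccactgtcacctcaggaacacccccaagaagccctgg
Igtp: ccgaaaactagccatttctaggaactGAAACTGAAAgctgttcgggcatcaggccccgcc

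Cell division genes were mostly lower. All 59 tested mitosis genes fell, 47 of them at least 2-fold (79.7%), with a median log2 difference of -1.22; with median of ratios scaling 57 of 59 were called. Ccnb2, cyclin B2, stood at 316, 290.3 and 286 TPM and 90.5, 71.1 and 94.8 TPM (log2 difference -1.797, SE 0.10, adjusted p = 3.3e-06). Nusap1, which bundles spindle microtubules, fell from 128 ± 2.201 to 34.1 ± 9.39 TPM, Kif23, a motor of cytokinesis, from 93.96 ± 3.02 to 27.5 ± 4.98 TPM, and Ncapd2, a condensin subunit, from 205 ± 11.2 to 62.6 ± 12.9 TPM. Control libraries were all above OVA libraries for these genes, and OVA replicate 2 was the lowest. DNA replication genes moved less: 41 of 46 were lower but 10 reached 2-fold (21.7%). This count was 4 without OVA replicate 2 and with granzymes left out (8.7%), 6 under median of ratios scaling and 15 without OVA replicate 3. Cdt1, which loads the replicative helicase, fell from 99.2 ± 6.88 to 31.3 ± 5.09 TPM, and Mcm3, a helicase subunit, from 277 ± 13.6 to 129 ± 20.8 TPM. Orc1 and Dna2 were the members called higher, from 10.4 ± 0.672 to 12.7 ± 1.33 TPM and from 6.39 ± 0.289 to 7.91 ± 0.748 TPM, and both calls were lost without each control library in turn and in the fit with the replicate number as a block. Regulators of G1 gave 9 of 29 higher and 16 lower. At least 2-fold, 1 was higher (3.45%) and 10 were lower (34.5%), against 8.98% and 13% of all tested genes. E2f2, an S phase activator, stood at 102, 94.2 and 94.97 TPM and 11.3, 7.03 and 15.4 TPM (log2 difference -3.06, SE 0.22, adjusted p = 9.5e-06), and Ccnd3, cyclin D3, fell from 163 ± 8.02 to 44.3 ± 6.098 TPM. The CDK inhibitors did not go together: Cdkn1b (p27) and Cdkn2d (p19) fell, from 35.3 ± 1.09 to 9.54 ± 1.73 TPM and from 148 ± 4.27 to 41.9 ± 4.87 TPM, whereas Cdkn1a (p21) and Cdkn2b (p15) rose, from 152 ± 3.59 to 284 ± 29.2 TPM and from 24.6 ± 3.96 to 54.2 ± 12.1 TPM.

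The letters TTTGAA are known as the cell cycle genes homology region. They were in 38 of 52 mitosis promoters found (73.1%), against 12.35% of the 9161 promoters. All tested mitosis genes were lower, with the letters or without. The direction of these 38 genes therefore says nothing about the letters. Of all 1131 genes with these letters, 502 were lower and 340 higher, where 39.8% and 31.7% of all tested genes were. The E2F letters GCGCGAAA were in 6 of 38 replication promoters (15.8%) against 0.753%, with 4 of the 6 lower and 1 higher. Of the 46 replication genes tested, 41 were lower, so the direction of these 6 says nothing about the letters either. Upstream stretches of Mki67 (299 to 108 TPM; chr7:135716380-135716509, minus strand), Top2a (302 to 101 TPM; chr11:99024190-99024269, minus strand) and Ncapd2 (chr6:125191587-125191716, minus strand) are shown because they place the homology region in genes at least 2-fold lower, with the letters in capitals on either strand.
Mki67: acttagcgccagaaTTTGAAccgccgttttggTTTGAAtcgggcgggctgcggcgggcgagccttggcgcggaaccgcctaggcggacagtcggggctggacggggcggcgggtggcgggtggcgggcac
Top2a: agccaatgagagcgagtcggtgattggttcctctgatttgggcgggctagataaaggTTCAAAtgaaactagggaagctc
Ncapd2: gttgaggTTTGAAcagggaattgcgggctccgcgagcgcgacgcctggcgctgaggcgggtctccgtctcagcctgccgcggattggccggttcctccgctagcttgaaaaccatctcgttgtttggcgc

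Genes that supply amino acids rose more often than they fell. Of 32 tested genes of amino acid synthesis and the one-carbon pathway, 21 were higher and 8 lower, with 9 (28.1%) and 4 (12.5%) at least 2-fold. Asns, asparagine synthetase, stood at 55.7, 57.4 and 51.9 TPM and 213, 246 and 209 TPM (log2 difference 1.996, SE 0.07, adjusted p = 4.4e-07). Cth, which makes cysteine from cystathionine, rose from 0.201 ± 0.174 to 20.1 ± 1.14 TPM, and Bcat1, a branched-chain transaminase, from 7.79 ± 1.05 to 29.8 ± 0.723 TPM. Glul, glutamine synthetase, fell from 85.9 ± 0.572 to 31.03 ± 2.27 TPM, and Ass1, which begins arginine synthesis from citrulline, from 238 ± 14.6 to 93.3 ± 13.4 TPM. Of 29 transporters, 15 were higher and 7 lower (37.9% and 17.2% at least 2-fold). Slc7a5, the large neutral amino acid carrier, stood at 144, 135 and 136 TPM and 452, 542 and 459 TPM (log2 difference 1.797, SE 0.07, adjusted p = 7.1e-07), and Slc1a4 rose from 3.75 ± 0.496 to 27.9 ± 3.47 TPM. Slc2a3, the glucose carrier GLUT3, fell from 255, 242 and 238 TPM to 75.99, 71.4 and 84.4 TPM (log2 difference -1.66, SE 0.07, adjusted p = 6.8e-07), and the lactate carrier Slc16a3 from 199 ± 8.47 to 89.9 ± 8.11 TPM.

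The enzymes that charge tRNAs for the cytosol rose in 17 of 20 cases (median 0.85), while those of mitochondria gave 6 higher and 4 lower of 16 (median -0.09, and 0.07 under quantile normalization). Aars, for alanine, rose from 48.8 ± 0.958 to 132 ± 10.2 TPM, and Iars, for isoleucine, from 69.4 ± 3.35 to 169.6 ± 10.6 TPM. Dars and Vars, for aspartate and valine, fell, from 119.7 ± 3.93 to 60.9 ± 0.305 TPM and from 231 ± 14.6 to 143 ± 8.43 TPM. Ribosome biogenesis genes were higher in 43 of 48, the other 5 not being called, with a median of 0.63 and 12.5% at least 2-fold. Bop1, a factor of the large subunit, rose from 72.7 ± 2.32 to 156 ± 9.26 TPM, and Utp20, of the small subunit, from 9.32 ± 1.15 to 30.3 ± 2.84 TPM. The ribosomal proteins themselves, which form the finished particle, went the other way, by small amounts. Of 79 cytosolic ones, a family added after values were seen, 67 were lower and 5 higher, but only 1 was at least 2-fold lower. The median was -0.43, and -0.32 with granzymes left out. Under median of ratios scaling 57 were lower. The share of transcripts from this family went from 18.5 ± 0.414% to 14.2 ± 0.3503% (SD, n = 3). Nucleotide synthesis had no common direction, with 12 of 34 higher and 16 lower, and 15 and 12 with granzymes left out. At least 2-fold, 2.94% were higher and 8.82% lower. The CTP synthases went apart: Ctps rose from 24.7 ± 1.37 to 52.7 ± 3.54 TPM and Ctps2 fell from 29.5 ± 0.8603 to 11.2 ± 0.402 TPM.

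The letters TGATGNAA, a composite site of ATF4 and C/EBP factors, were in 3 of 24 amino acid synthesis promoters, 3 of 22 transporter promoters and 5 of 27 tRNA synthetase promoters, against 2.23% of the 9161. The 11 genes (Asns, Pycr1, Got1, Slc1a4, Slc7a7, Slc7a11, Aars, Gars, Iars, Tars and Yars) were all higher with OVA. In the 3 lists as a whole, 65.6%, 51.7% and 63.9% of tested genes were higher. Over all 204 tested genes with the letters, 80 were higher and 74 lower, where 31.7% and 39.8% of all tested genes were. The transcript of Atf4 rose from 453 to 625 TPM, and its part in these rises was not tested. Asns (chr6:7693210-7693269, minus strand), Slc7a11 (chr3:50443614-50443693, minus strand) and Pycr1 (chr11:120643749-120643858, minus strand) are shown with the letters in capitals; Slc7a11 holds them on each strand.
Asns: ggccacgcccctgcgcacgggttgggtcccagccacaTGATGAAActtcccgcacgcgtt
Slc7a11: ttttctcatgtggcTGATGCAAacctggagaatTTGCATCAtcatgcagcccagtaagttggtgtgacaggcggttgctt
Pycr1: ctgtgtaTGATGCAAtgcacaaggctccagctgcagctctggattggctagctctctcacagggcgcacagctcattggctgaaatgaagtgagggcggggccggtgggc

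The endoplasmic reticulum (ER), where secreted and membrane proteins are folded, rose nearly as a whole. Of 67 tested genes of ER entry, folding and export, 60 were higher, 21 of them at least 2-fold (31.3%), and 2 were lower, with a median log2 difference of 0.66; their share of transcripts went from 0.925 ± 0.0159% to 1.71 ± 0.137%. Calr, the calcium-binding chaperone calreticulin, stood at 746, 777 and 737 TPM and 2185, 2616 and 2136 TPM (log2 difference 1.61, SE 0.08, adjusted p = 1.3e-06). Pdia6, a disulfide isomerase, rose from 141 ± 8.45 to 466 ± 48.7 TPM, Hyou1, an ER chaperone of the HSP70 class, from 48.9 ± 1.43 to 182 ± 21.9 TPM, and Sec24d, a coat protein of export vesicles, from 19.6 ± 1.73 to 74.1 ± 9.22 TPM. Every OVA library exceeded every control library for these genes, with OVA replicate 2 highest. Ero1l, the oxidase that drives disulfide formation, and Kdelr1, which retrieves ER proteins, fell, from 327 ± 19.5 to 211 ± 32.4 TPM and from 133 ± 4.16 to 101 ± 1.199 TPM.

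The ER stress element (CCAAT and CCACG with any 9 bases between, either strand) was in 10 of the 55 ER promoters found, against 16 of all 9161 (0.175%). Of the 10 genes, 8 were higher and the other 2 (Ero1lb and Derl3) were not called. Since 60 of the 67 ER genes tested were higher, the direction of these 10 says nothing about the element. The stretches of Hspa5 (chr2:34771990-34772089, plus strand), Calr (chr8:84846932-84847101, minus strand) and Pdia6 (chr12:17266479-17266588, plus strand) hold the element in capitals, on the reverse strand in Calr.
Hspa5: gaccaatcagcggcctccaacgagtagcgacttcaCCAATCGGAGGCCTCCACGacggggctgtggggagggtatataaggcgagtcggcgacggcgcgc
Calr: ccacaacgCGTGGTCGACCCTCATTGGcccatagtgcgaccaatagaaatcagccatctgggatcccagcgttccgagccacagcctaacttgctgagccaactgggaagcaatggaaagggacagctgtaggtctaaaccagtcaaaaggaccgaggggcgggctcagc
Pdia6: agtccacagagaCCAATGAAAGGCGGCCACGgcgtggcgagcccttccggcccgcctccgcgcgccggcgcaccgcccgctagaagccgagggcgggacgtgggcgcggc

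Mitochondrial genes changed little in size. Of 82 mitochondrial translation genes, 49 were higher and 13 lower, but 3.66% and 1.22% reached 2-fold, the latter a single gene that did not without control replicate 3 or OVA replicate 1, and 7 were lower under median of ratios scaling. Mrps6 rose from 36.3 ± 2.94 to 125 ± 9.53 TPM, and Mrpl14 fell from 47.6 ± 5.37 to 23.3 ± 4.61 TPM. Of 77 nuclear genes of the respiratory chain, 30 were higher and 15 lower, with a median of 0.06 (42 and 9 with granzymes left out). At least 2-fold, 1 was higher and 0 were lower. Atp5g1, a ring subunit of ATP synthase, rose from 30.9 ± 1.81 to 64.6 ± 4.65 TPM, and Ndufv3, of complex I, fell from 128 ± 5.88 to 63.6 ± 1.92 TPM.

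Genes of glycogen use and low oxygen fell by larger amounts. Of 37 tested, 26 were lower, 19 of them at least 2-fold (51.4%), and 4 were higher. Pygl, glycogen phosphorylase of the liver type, stood at 97.5, 93.5 and 102 TPM and 0.20004, 0.449 and 0.604 TPM (log2 difference -6.13, SE 0.12, adjusted p = 2.6e-08), the largest decrease of all named genes. Pygm, the muscle type, fell from 13.8 ± 0.6599 to 0.5299 ± 0.0858 TPM. Egln3, an oxygen sensor that hydroxylates HIF, stood at 286, 265 and 264 TPM and 18.3, 21.7 and 28.2 TPM (log2 difference -3.54, SE 0.13, adjusted p = 5.1e-07), and Kdm3a, a histone demethylase induced in low oxygen, fell from 97.3 ± 7.53 to 13.8 ± 0.243 TPM. Hilpda, which blocks lipid droplet breakdown, went against the list, from 26.5 ± 0.991 to 82.1 ± 17.4 TPM. The rise of Epas1 described above stood beside these decreases, and the transcript of Hif1a was not called, at 163 to 154 TPM.

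Of 44 lipid genes, 18 were higher and 15 lower, with 9.09% and 6.82% at least 2-fold; the 3 genes behind the latter were 5 without control replicate 3. The lipid droplet coats moved apart: Plin2 rose from 15.9, 13.8 and 14.6 TPM to 69.9, 87.95 and 76.8 TPM (log2 difference 2.33, SE 0.10, adjusted p = 6.8e-07), and Plin3 fell from 86.04, 78.8 and 91.4 TPM to 16.5, 8.75 and 22.03 TPM (log2 difference -2.45, SE 0.27, adjusted p = 8.7e-05). Cd36, a fatty acid carrier, rose from 0.351 ± 0.271 to 13.4 ± 4.97 TPM. Of 46 genes of iron, redox and metal handling, 26 were higher and 13 lower, with 15.2% and 4.35% at least 2-fold. Their share of transcripts went from 0.695 ± 0.00995% to 1.54 ± 0.222%, largely through abundant members. Ftl1, ferritin light chain, stood at 1201, 1154 and 1154 TPM and 6460.4, 8110.1 and 5609 TPM (log2 difference 2.51, SE 0.12, adjusted p = 1.2e-06), and the metallothionein gene Mt2 at 426, 398 and 353 TPM and 2413, 3017 and 1833 TPM (log2 difference 2.598, SE 0.16, adjusted p = 4.7e-06). Hmox1, which frees iron from haem, rose from 14.9 ± 1.86 to 109 ± 21.9 TPM. Prdx4, the ER peroxiredoxin, fell from 73.8 ± 5.67 to 8.45 ± 2.13 TPM, and the glutathione synthesis genes Gclm and Gclc fell from 14.3 ± 0.206 to 6.94 ± 0.552 TPM and from 26.5 ± 1.92 to 17.1 ± 0.339 TPM.

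Regulators of cell death gave 15 higher and 12 lower of 35 (42.9% and 34.3%, against 31.7% and 39.8% of all tested genes). At least 2-fold, 17.1% were higher and 17.1% lower, against 8.98% and 13%. Bcl2, which protects resting lymphocytes, stood at 129, 126 and 119 TPM and 25.004, 28.1 and 29.5 TPM (log2 difference -2.14, SE 0.07, adjusted p = 2.8e-07), while the related Bcl2a1d rose from 9.01, 11.9 and 9.53 TPM to 114, 68.004 and 121 TPM (log2 difference 3.16, SE 0.21, adjusted p = 6.2e-06). Bcl2a1d and Bcl2a1b are near-identical copies. Ripk3 and Mlkl, successive steps of necroptosis, moved apart, Ripk3 falling from 83.3 ± 4.399 to 12.2 ± 0.494 TPM and Mlkl rising from 15.1 ± 1.81 to 44.1 ± 7.49 TPM. Casp6, a caspase, fell from 30.3 ± 1.403 to 11.7 ± 1.64 TPM, and the death receptor Fas from 15.7 ± 0.872 to 2.24 ± 0.966 TPM. Of 48 chromatin regulators, 28 were lower and 7 higher (18.8% and 6.25% at least 2-fold); the 3 genes at least 2-fold higher were 1 without control replicate 3. Bmi1, a Polycomb protein, rose from 13.6 ± 1.68 to 39.7 ± 3.57 TPM and Dnmt3a, a DNA methyltransferase, from 9.66 ± 1.09 to 21.6 ± 4.76 TPM. Cbx7, another Polycomb protein, fell from 21.7 ± 0.101 to 4.34 ± 1.28 TPM, and Hdac7 and Hdac5, class II deacetylases, from 323 ± 18.8 to 97.6 ± 25.5 TPM and from 31.6 ± 0.887 to 5.51 ± 1.82 TPM.

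A set of 12 genes was listed at 0 in every control library and reached at least 5 TPM in every OVA library. Besides Ctsg and Ncr1 it held Alox5, the enzyme that starts leukotriene synthesis, at 41.5, 50.2 and 34.1 TPM with OVA, at least 332-fold above the floor of 3 reads. Fcrl6, an Fc receptor-like protein of cytotoxic lymphocytes, reached 28.1, 37.2 and 28.5 TPM (at least 161-fold). Tmsb15a, a thymosin, reached 113, 119 and 56.3 TPM (at least 104.5-fold), and the chemokine Ccl1 24.95, 13.97 and 34.2 TPM (at least 111-fold). Inhba, an activin subunit, Rasd2, Rbpms2, Khdc1a, Akr1c18 and Gzmn completed the set. The reverse pattern was shown by 4 genes. They were H2-Ob, the Fc receptor transporter Fcgrt, at 6.74, 9.24 and 8.99 TPM in control, and the predicted genes Gm45055 and Gm17041.

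The OVA libraries differed among themselves, and replicates 2 and 3 lay at opposite ends for many genes. For 12 of the 15 genes with the largest increases, OVA replicate 2 was the highest OVA library, and for 13 of them OVA replicate 3 was the lowest. Among the 10 genes with the largest spread over the OVA libraries, OVA replicate 2 was the lowest in 8 and OVA replicate 3 the highest in 8. These included Ccr7, a lymph node homing receptor, at 47.9, 20.1 and 63.8 TPM against 59.1, 33.3 and 39.5 TPM in control, and Igfbp7, a secreted growth factor binding protein, at 49.1, 17.2 and 61.9 TPM against 2.43, 3.78 and 3.6999 TPM. Ccr7 was not called (adjusted p = 0.815), and its OVA libraries lay on both sides of the control libraries. Nrn1, a membrane-anchored neuritin, stood at 130.4, 50.6 and 203 TPM against 81.6, 77.4 and 75.8 TPM and was called without OVA replicate 2 (log2 difference 1.05). Without OVA replicate 2 the counts of all genes were 3655 higher and 4516 lower.

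**Figure D5:**
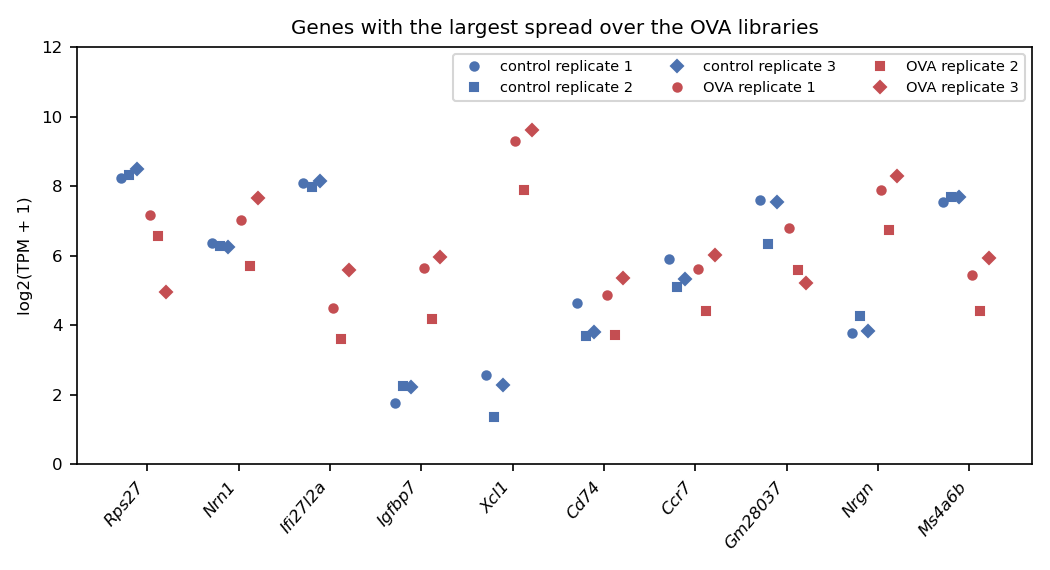
Values of log2(TPM + 1) on the y axis for the 10 genes with the largest spread over the OVA libraries, with marker shape giving the replicate (control blue, OVA red). OVA replicate 2 (squares) is the lowest OVA library in 8 of 10 and OVA replicate 3 (diamonds) the highest in 8 of 10.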

How the data were processed

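The authors deposited a table of TPM, 1 column for each library and 1 row for each gene symbol; its name says FPKM, yet every column adds up to 1000000, as TPM does. Trim Galore 0.5.0, Salmon and the mouse build GRCm39 are named in the submitters' processing notes, and no gene annotation is named there. Whole read counts were worked back from the TPM for 16734 of 16734 genes above 0 in at least 2 libraries (within 0.0001 reads, or 3e-08 of the value if larger), and gave the depth. Because the table is in TPM, no count model was the main test.

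Values were changed to log2(TPM + 1), and genes whose mean reached 1 TPM in control or OVA were fitted with limma 3.58.1 in R 4.3.3 (lmFit, eBayes with trend) on the 6 libraries. Two-sided p-values were adjusted after Benjamini and Hochberg across all 11739 genes, and a call needs an adjusted p below 0.05. On simulated data with 200 changed genes, 72%, 92% and 96% of 1.5-, 2- and 4-fold changes were found, with 10 false calls (5.38%). The changed genes were drawn only from those at higher levels, so these rates do not cover the lowest tested genes. They were also far fewer than the genes called in the data, so the false share need not carry over.

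The comparison and the 42 gene lists (1602 entries, 1597 in the table, 11 under older symbols) were chosen with earlier results of these data known. Genes were named by rule: the 15 largest increases and decreases with at least 5 TPM in the higher group and no overlap, up to 5 members per list and direction, members against their list, the 10 most abundant genes per group, genes at 0 in a group, and the 10 of largest spread with OVA. Families, gene clusters, motifs, printed promoters and other named genes were chosen after values were seen. RefSeq sequences are of GRCm38.p6 and matched by symbol for 9161 tested genes; no other coordinates are used. The labels do not say whether replicate numbers pair libraries, and the main fit did not treat them as pairs. Deviations of same-numbered libraries correlated at -0.01, 0.09 and 0.01 across genes, which cannot settle whether they were paired. Alternatives covered the pseudocount, filter, scaling, model and each library left out. A few genes are not reported here.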

Additional observations from a re-analysis of the deposited data

How the results depend on the processing

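The counts of genes called were 3717 higher and 4675 lower, with 1054 and 1523 at least 2-fold. A pseudocount of 5 in place of 1 gave 555 higher and 805 lower at least 2-fold, since it shrinks changes of low genes by construction. Leaving out each library in turn gave 3388 to 3655 higher, 4244 to 4670 lower, 1015 to 1097 at least 2-fold higher and 1391 to 1661 at least 2-fold lower. Scaling moved the split between directions: median of ratios gave 4271 higher and 4223 lower, quantile normalization 4205 and 4236, and leaving out the granzyme genes 4415 and 4051. With the replicate number as a block the counts were 3550 and 4496. The labels give no more than a shared number, and not every library correlated best with its own number. The voom fit on recovered reads, chosen after seeing the data, gave 4018 and 4422. Quantile normalization turned Actb from 0.41 to -0.067 (adjusted p = 0.395) and mt-Atp6 from 0.07 to -0.34; the cause was not tested. Of the other values for named genes under the alternatives, 6279 kept direction and call, 94 lost the call and 6 gained it. Depth limits genes below 1 TPM, which were not tested. Each SE, like the p-values, reflects the spread among libraries only.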
